A study of Mus musculus with 7 samples.

Results

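The cartilage collagens examined here are the 8 mouse genes Col2a1, Col9a1, Col9a2, Col9a3, Col10a1, Col11a1, Col11a2 and Col27a1, which encode the chains of types II, IX, X, XI and XXVII collagen. They were found by symbol among the 42687 gene identifiers of the count table, and all 8 of 8 had counts in every library and passed the filter on low counts that left 14304 genes. The libraries were made from cells sorted for CD24 and CD29 (integrin beta 1) on their surface from digested femurs of C57BL/6 mice, a population the labels call skeletal stem cells. Mice that were 3 months old ate food with 60% fat (the high fat diet, HFD; 3 libraries, numbered 2 to 4) or 10% fat (the low fat diet, LFD; 4 libraries, numbered 1 to 4) over 4 weeks. All libraries share the strain, the sort and the kits. The labels give no sex and do not say whether a library is 1 animal or a pool, so the p-values speak only of how these 7 libraries scatter, part of which may be technical. The question is how much of these transcripts the sorted cells held under each diet.

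Type II collagen forms the fibrils that give cartilage its tensile strength, and each of its molecules is a homotrimer of the Col2a1 product. Type XI collagen lies inside those fibrils and limits their width, and type IX collagen sits on their surface and links them to other matrix. Type X collagen builds a separate network made by hypertrophic chondrocytes, the cells that precede mineralization in the growth plate. Type XXVII collagen is a fibrillar collagen of cartilage with a role in growth plate organization. SOX9, with SOX5 and SOX6, drives Col2a1 and its partners, and RUNX2 and MEF2C drive Col10a1. In bulk samples, fewer cells of a type and less RNA per cell cannot be told apart.

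Several features of the libraries bear on these values. Total counts ranged from 20885803 to 24681838 in HFD libraries and from 17391613 to 23172976 in LFD libraries. Xist, the RNA of the inactive X chromosome, had 0 counts in each HFD library and 257 to 526 counts in each LFD library, and 4 Y-linked genes together had 2494 to 3405 counts against 1 to 5 counts. Diet and sex therefore cannot be told apart in any difference below. Cd24a, the gene of the sorting antigen CD24, measured 774 to 3004 CPM in HFD and 1524 to 4852 CPM in LFD (CPM are counts scaled to the library total times TMM, a factor from edgeR that evens out composition). Library LFD 1 stood apart from the other LFD libraries in the cartilage collagens, and results that rest on it are given with and without it.

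Transcripts of other cell types were present in every library, and their sums were not tested between the diets. By edgeR no single marker passed an adjusted p of 0.05. DESeq2 called 7 granulocyte, 4 reticular stroma, 3 muscle and 2 monocyte and macrophage markers, and 2.25% of all genes. The erythroid and osteoblast sums of the diets overlapped, and the other sums did not. The 11 erythroid markers in the table, all with counts in every library, summed to 22658 to 109618 CPM in HFD and to 93482 to 162101 CPM in LFD, with HFD 2 the lowest of the 7 libraries. The 11 granulocyte markers summed to 8400.2 to 16420 CPM in HFD and 957 to 5403 CPM in LFD, with Cxcr2 at 0 in some library. The 8 reticular stroma markers summed to 1619 to 2710.0 CPM in HFD and 212 to 468 CPM in LFD, and the 9 osteoblast markers to 22554 to 35053 CPM in HFD and 8823 to 26104 CPM in LFD. Smaller sums came from 9 monocyte and macrophage markers (1639 to 2119 CPM in HFD, 208 to 825 CPM in LFD), 7 muscle markers (142 to 146 against 243 to 472 CPM), 9 B lineage markers (67.5 to 126 against 10.9 to 65.3 CPM) and 8 endothelial markers (11.9 to 16.04 against 18.1 to 32.6 CPM). Markers at 0 in at least 1 library included Csf1r, Adgre1, Ms4a7, C1qa, C1qb, Cd79b, Pax5, Ms4a1, Cdh5, Kdr, Emcn, Flt1, Cldn5, Tnnt3 and Ckm. The part of these cell types in the results for the collagens was not tested.

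Promoter sequences of RefSeq (build GRCm38.p6, which is mm10), each 250 bases before and 50 bases after an annotated start, were present for 6 of the 8 genes. With every library included, Col10a1 was the member that varied apart from the rest, which rested on LFD 1. Col11a1 and Col11a2 encode chains of 1 molecule and varied with Col2a1. For these reasons the windows of these 3 are shown. They cover chr10:34389731-34390030, chr3:114030290-114030589 and chr17:34038888-34039187, all on the plus strand, and capitals mark matches to the SOX core (ACAAAG or ACAATG), the RUNX core (TGTGGT or TGCGGT) or the TATA box (TATAAA), searched on both strands.
Col10a1: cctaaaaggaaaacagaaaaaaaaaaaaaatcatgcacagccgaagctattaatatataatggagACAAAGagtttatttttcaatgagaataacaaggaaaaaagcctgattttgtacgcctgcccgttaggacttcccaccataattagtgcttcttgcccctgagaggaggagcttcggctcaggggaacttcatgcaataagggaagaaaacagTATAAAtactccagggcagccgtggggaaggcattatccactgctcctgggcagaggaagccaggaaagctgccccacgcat
Col11a1: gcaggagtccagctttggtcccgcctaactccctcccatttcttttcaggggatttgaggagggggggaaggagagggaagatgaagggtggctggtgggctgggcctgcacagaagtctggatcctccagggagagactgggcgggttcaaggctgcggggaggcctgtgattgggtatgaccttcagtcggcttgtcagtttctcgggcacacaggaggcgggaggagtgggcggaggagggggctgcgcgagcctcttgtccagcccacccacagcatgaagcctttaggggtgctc
Col11a2: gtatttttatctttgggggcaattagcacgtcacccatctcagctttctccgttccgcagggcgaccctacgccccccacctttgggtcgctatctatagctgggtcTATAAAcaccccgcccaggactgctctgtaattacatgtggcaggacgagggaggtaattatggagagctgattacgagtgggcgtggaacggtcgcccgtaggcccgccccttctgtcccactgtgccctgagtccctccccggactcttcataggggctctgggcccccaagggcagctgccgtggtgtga
The Col10a1 window held a SOX core 185 bases and a TATA box 32 bases before the start. The Col11a2 window held a TATA box 143 bases before its RefSeq start, and the Col11a1 window held none of these letters. The Col11a2 window ends at 34039187, upstream of the gene start at 34039437 given below, so the annotated starts differ. A SOX core was present in 28.6% of all 32851 promoter windows, a RUNX core in 22.4% and a TATA box in 13.6%, and the windows of Col9a1, Col9a2 and Col27a1 held none. These matches describe letters in a short window and are not binding sites.

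Col2a1 (ENSMUSG00000022483, mm10 chromosome 15, 97975602 to 98004695, minus strand) encodes the chain of type II collagen and was the second most abundant of the tested genes by mean CPM. It measured 39181, 21649 and 28381 CPM in HFD 2, 3 and 4, against 10209, 27312, 21999.7 and 30296 CPM in LFD 1, 2, 3 and 4. LFD 1 was lowest and HFD 2 highest, and the remaining libraries of the diets overlapped. The means were 29737 ± 8844 CPM in HFD (SD, n = 3) and 22454 ± 8855 CPM in LFD (SD, n = 4), a log2 fold change of 0.41 ± 0.47 (SE, HFD over LFD, edgeR quasi-likelihood test, adjusted p = 0.847). Col2a1 alone took 2.15% to 4.54% of all counts in HFD libraries and 1.13% to 2.9953% in LFD libraries. The 8 genes together took 5.92%, 2.91% and 3.82% of all counts in HFD 2, 3 and 4, against 1.62%, 3.29%, 2.48% and 3.87% in LFD 1, 2, 3 and 4.

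Both type XI genes had higher mean CPM in HFD, without passing the test. Col11a1 (chromosome 3, 114030540 to 114220718), for the alpha 1 chain, measured 2797, 1812 and 2185 CPM in HFD 2, 3 and 4, against 809, 1584, 1076 and 1837 CPM in LFD 1, 2, 3 and 4. HFD 3 lay just under LFD 4, and the other HFD libraries lay above every LFD library. Its means were 2265 ± 497 CPM in HFD and 1327 ± 468 CPM in LFD, a log2 fold change of 0.77 ± 0.35 (edgeR, unadjusted p = 0.0611, adjusted p = 0.681). Col11a2 (chromosome 17, 34039437 to 34066685), for the alpha 2 chain, measured 2482, 2002 and 2556 CPM in HFD 2, 3 and 4, against 767, 2036, 1272 and 1880.2 CPM in LFD 1, 2, 3 and 4. Of the HFD libraries, HFD 3 alone lay within the LFD range. The fold change was 0.66 ± 0.37 on the log2 scale (edgeR, adjusted p = 0.693).

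Col27a1 (chromosome 4, 63214004 to 63334991), the type XXVII gene, was the lowest member. It measured 162, 94.9 and 158 CPM in HFD 2, 3 and 4, against 54.4, 126, 74.5 and 103 CPM in LFD 1, 2, 3 and 4, and HFD 3 again lay within the LFD range. The log2 fold change was 0.63 ± 0.33 (edgeR, adjusted p = 0.693).

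Type IX collagen is assembled from a chain of each of Col9a1, Col9a2 and Col9a3. Of these, Col9a3 had the highest CPM in each library. Col9a1 (chromosome 1, 24177610 to 24252684) measured 1956, 1119.9 and 1763 CPM in HFD 2, 3 and 4, against 567, 1489, 1012 and 1569 CPM in LFD 1, 2, 3 and 4. Col9a2 (chromosome 4, 121039385 to 121055322) measured 1671, 990.2 and 1978 CPM in HFD 2, 3 and 4, against 596, 1374, 1118 and 1566 CPM in LFD 1, 2, 3 and 4. Col9a3 (chromosome 2, 180597790 to 180622189) measured 2291, 1426 and 2161 CPM in HFD 2, 3 and 4, against 733, 1687, 1241 and 1751 CPM in LFD 1, 2, 3 and 4. For each of them HFD 2 and HFD 4 lay above every LFD library and HFD 3 lay inside the LFD range. The log2 fold changes were 0.48 ± 0.40 for Col9a1, 0.41 ± 0.40 for Col9a2 and 0.53 ± 0.37 for Col9a3 (edgeR, adjusted p = 0.764, 0.802 and 0.722).

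Col10a1 (ENSMUSG00000039462, chromosome 10, 34389981 to 34397085), the type X gene, had a different pattern. It measured 546, 234 and 435 CPM in HFD 2, 3 and 4, against 872, 209.7, 90.0 and 159 CPM in LFD 1, 2, 3 and 4. LFD 1 was the highest of all 7 libraries, although it was the lowest of all 7 for each of the 7 other members. With every library the means were 405 ± 158 CPM in HFD and 333 ± 363 CPM in LFD, a log2 fold change of 0.28 ± 0.74 (edgeR, adjusted p = 0.938). Without LFD 1 the LFD mean was 153 ± 60.1 CPM (SD, n = 3), the groups did not overlap, and the log2 fold change was 1.42 ± 0.42 (edgeR, unadjusted p = 0.0125, adjusted p = 0.281). In that comparison 15.3% of all tested genes had every HFD library above every LFD library, and 1 of the 8 members, Col10a1, did. Without LFD 1, edgeR called 0 members where 0.0215% of genes passed, and Col10a1 was the 1 member at an unadjusted p under 0.05, where 14.3% of genes were.

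**Figure D1:**
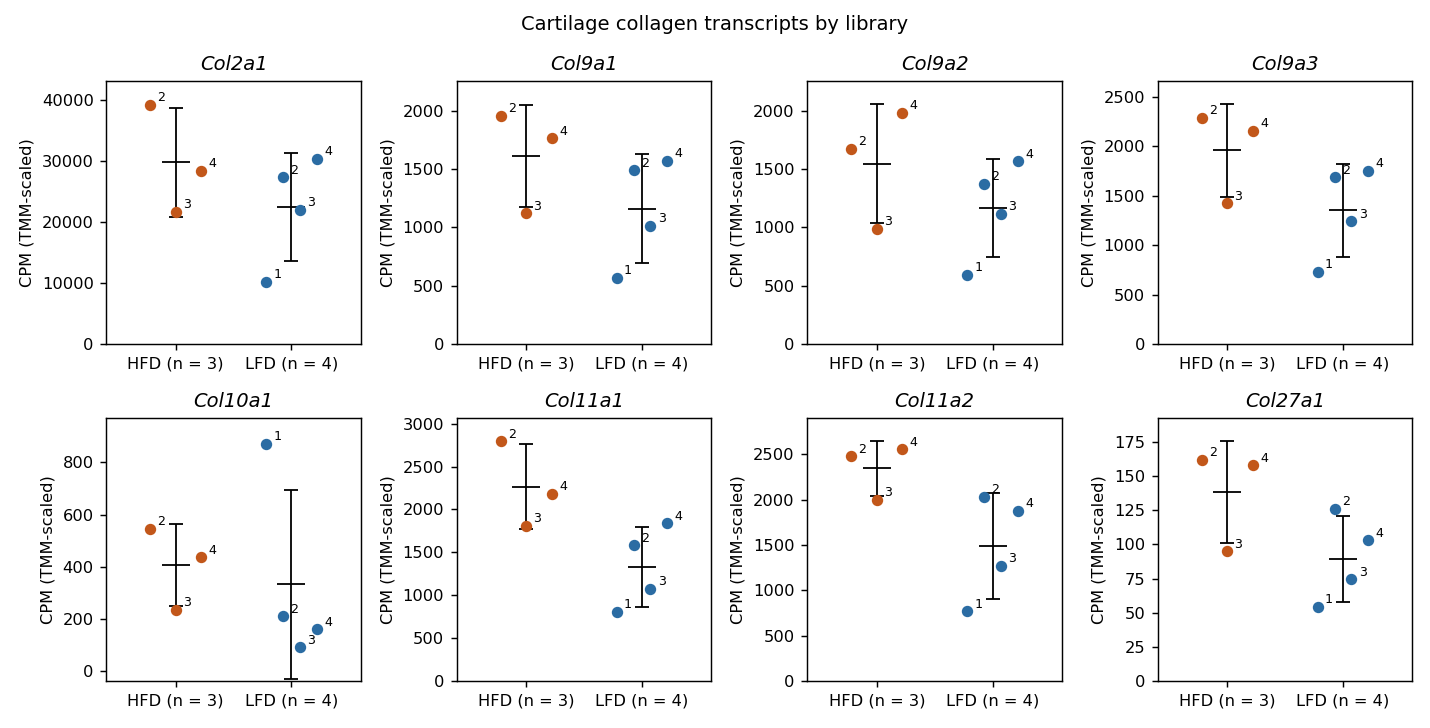
CPM of each cartilage collagen gene (y axis, linear from 0, except that the Col10a1 panel reaches below 0 to hold the error bar) in HFD libraries (orange, left, n = 3) and LFD libraries (blue, right, n = 4), with the library number beside each point and black bars for mean ± SD. LFD 1 is the lowest point in 7 panels and the highest, at 872 CPM, in the Col10a1 panel.

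No cartilage collagen passed the diet comparison. By edgeR's quasi-likelihood test 0 of 8 members had an adjusted p under 0.05, where 5 of 14304 genes passed (0.035%), 4 of them higher in HFD (0.028%), and 0 of 8 had an unadjusted p under 0.05, where 7.53% of genes did. DESeq2 also called 0 members (2.25% of genes called). Col11a1 alone of the members had an unadjusted p under 0.05 by DESeq2. So did 1886 genes in all, where 16073 genes had an adjusted p. Limma-voom with sample quality weights called 0 members (0.196% of genes called). By limma-voom 0 members had an unadjusted p under 0.05, where 2407 of 14304 genes did. All 8 log2 fold changes were above 0, as were 51.5% of those of all tested genes, with a median of 0.51 for the members and 0.02 for all genes. With limma-voom, Col2a1, Col9a1 and Col9a2 had values below 0 (-0.07, -0.03 and -0.15). For 0 of 8 members did the diets fail to overlap, against 11.9% of all tested genes. Leaving out LFD 1 brought the fold changes of 7 members closer to 0, among them Col2a1 to 0.17, Col9a1 to 0.26, Col9a2 to 0.20 and Col9a3 to 0.34, and moved that of Col10a1 the other way. Leaving out another library moved each of these 7 as far or farther, except Col11a2. None moved Col10a1 as far as LFD 1, without which it was 1.42. Without HFD 2 Col2a1 was 0.15, Col9a1 0.31 and Col10a1 -0.0019, and without HFD 4 Col9a2 was 0.198. Without HFD 3 Col9a1 was 0.70, Col9a2 0.66, Col9a3 0.73, Col10a1 0.57 and Col27a1 0.85, and without LFD 4 Col11a1 was 0.97. Without LFD 2, 3 or 4 Col10a1 was 0.12, -0.024 and 0.055.

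**Figure D2:**
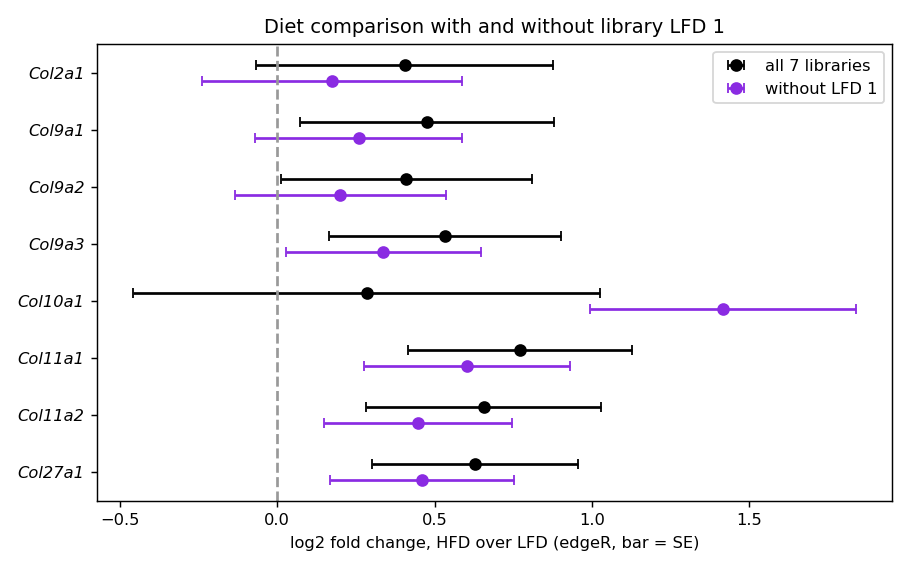
Log2 fold change of each member (HFD over LFD, edgeR, bars are SE) with all 7 libraries (black) and without LFD 1 (purple). The value of Col10a1 is 0.28 with every library and 1.42 without LFD 1, while the other 7 genes lie nearer to 0 without it.

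Because a gene's count depends on its length, levels were compared between members as CPM per kilobase of annotated exon (union of the GENCODE M21 exons, mm10). On this scale Col2a1 measured 3217 ± 957 in HFD and 2429 ± 958 in LFD, more than any other member in each of the 7 libraries, and it ranked 11th of 14275 genes with a length. Col9a2 (500 ± 163 in HFD, 376 ± 136 in LFD) and Col9a3 (509 ± 121 and 351 ± 122) came next, and their order changed between libraries. The order of Col11a2 (341 ± 43.8 in HFD, 217 ± 84.8 in LFD) and Col9a1 (318 ± 86.4 and 229 ± 91.8) also changed between libraries. Col11a1 (178 ± 39.0 in HFD, 104 ± 36.8 in LFD) and Col10a1 (129 ± 50.5 and 106 ± 116) followed. Col11a1 lay above Col10a1 in every library but LFD 1. Col27a1 was lowest in every library (10.6 ± 2.88 and 6.87 ± 2.41). In LFD 1 alone Col10a1, at 279 per kilobase, was second only to Col2a1 at 1105. With the length of the principal transcript in place of the union of exons, a choice added after the data were seen, Col2a1 stayed first and Col11a1, Col10a1 and Col27a1 last, while Col9a3 came before Col9a2 and Col9a1 before Col11a2. The union holds 9243 bases for Col2a1, where its principal transcript has 5104, so the size of its lead depends on the length used.

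Within a library, the ratio of 2 genes does not depend on how the library is scaled. Counts of Col9a1 per 100 counts of Col2a1 were 4.99, 5.17 and 6.21 in HFD 2, 3 and 4, against 5.56, 5.45, 4.60 and 5.18 in LFD 1, 2, 3 and 4. The value thus held within a narrow range, where Col2a1 CPM itself differed 3.84-fold between the lowest and highest library. Col11a1 gave 7.14, 8.37 and 7.699 counts per 100 Col2a1 counts in HFD 2, 3 and 4, against 7.92, 5.80, 4.89 and 6.06 in LFD 1, 2, 3 and 4, so that all 3 HFD libraries and LFD 1 lay above LFD 2, 3 and 4. Col9a2 measured 4.27, 4.57 and 6.97 counts per 100 Col2a1 counts in HFD 2, 3 and 4, against 5.84, 5.03, 5.08 and 5.17 in LFD 1, 2, 3 and 4. The chains of 1 molecule stayed close, with 89.1 to 117 Col9a1 counts per 100 Col9a2 counts in HFD and 90.5 to 108 in LFD. Col11a2 had 88.7 to 117 counts per 100 Col11a1 counts in HFD and 94.9 to 129 in LFD.

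Col10a1 varied more against Col2a1. It had 1.39, 1.08 and 1.53 counts per 100 Col2a1 counts in HFD 2, 3 and 4, against 8.54, 0.768, 0.409 and 0.525 in LFD 1, 2, 3 and 4. Each HFD library thus lay above LFD 2, 3 and 4 and below LFD 1. The mean log2 ratio was -6.24 ± 0.26 in HFD (SD, n = 3) and -6.52 ± 2.02 in LFD (SD, n = 4), a difference of 0.28 (exact permutation test, two-sided, p = 0.914). Without LFD 1 the LFD mean was -7.51 ± 0.46 and the difference was 1.27, with an exact permutation p of 0.1, the smallest that 3 against 3 libraries allow.

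**Figure D3:**
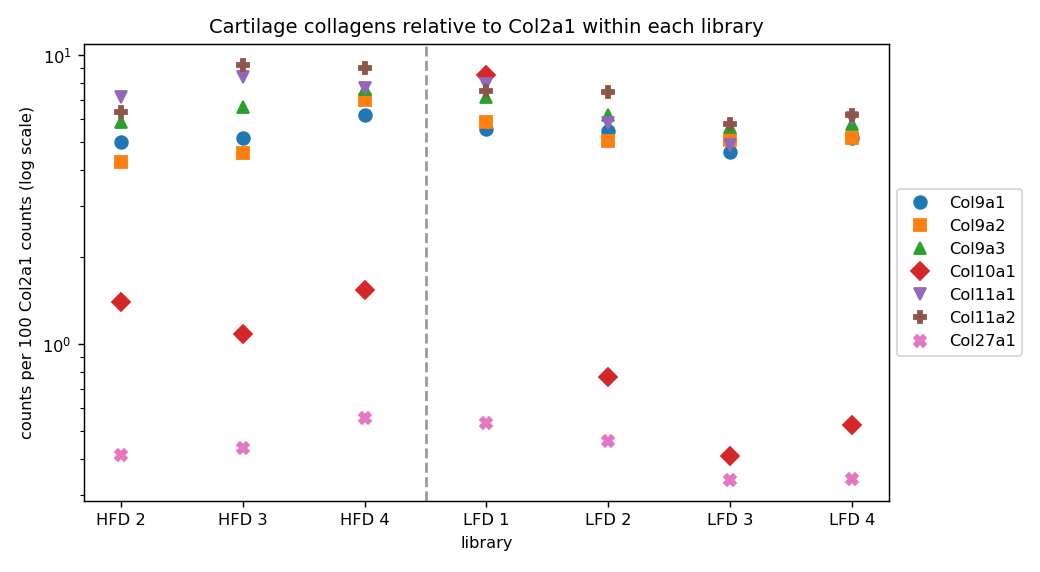
Counts of the 7 other cartilage collagens per 100 Col2a1 counts (y axis, log scale) in each library (x axis), HFD to the left of the dashed line and LFD to the right. Col10a1 (red diamonds) runs from 0.409 in LFD 3 to 8.54 in LFD 1, while the other genes stay within narrower bands.

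None of 9 ratios tested differed between the diets by an exact two-sided permutation test over the 35 assignments of libraries, whose smallest possible p is 0.0286. The smallest p was 0.114, for Col11a1 over Col2a1, with a mean log2 ratio of -3.70 ± 0.11 in HFD and -4.04 ± 0.29 in LFD (exact permutation, adjusted over the 9 ratios p = 0.771). Without LFD 1 the LFD mean of this ratio was -4.17 ± 0.16 and the difference was 0.47 in place of 0.35. Its exact permutation p was then 0.1, the smallest that 3 against 3 libraries allow. Col2a1 over Acan, the aggrecan gene, was 4.15 ± 0.28 in HFD and 4.398 ± 0.66 in LFD (exact permutation p = 0.543). Without LFD 1 its LFD mean was 4.71 ± 0.23, all 3 HFD libraries lay below LFD 2, 3 and 4, and the difference was -0.57 in place of -0.25, with the smallest exact permutation p that 3 against 3 libraries allow, 0.1. Col2a1 over Col1a1, the main bone collagen gene, was 0.51 ± 0.80 in HFD and 0.94 ± 0.80 in LFD (exact permutation p = 0.486). The members held 53.7%, 31.4% and 49.3% of all counts in the 44 annotated collagen chain genes in HFD 2, 3 and 4, against 49.6%, 44.1%, 40.3% and 63.7% in LFD 1, 2, 3 and 4. The diets overlapped in all of these measures.

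Across the 7 libraries, 6 members followed Col2a1. Pearson's r of log2 CPM with Col2a1 was 0.98 for Col9a1 (exact permutation p = 0.00119, adjusted over 7 relations p = 0.00486, Spearman's rho 0.93, adjusted p = 0.0236) and 0.96 for Col9a3 (exact permutation, adjusted p = 0.00486, rho 0.93, adjusted p = 0.0236). It was 0.93 for Col9a2, 0.91 for Col11a2, 0.89 for Col11a1 and 0.89 for Col27a1 (exact permutation, adjusted p from 0.00694 to 0.0146, rho from 0.64 to 0.89). The rank correlation passed after adjustment for each of these except Col11a2 (exact permutation, adjusted p = 0.162). Col10a1 had r = -0.31 (exact permutation p = 0.525) and rho = -0.11 (exact permutation p = 0.840). Values of 1 library share its scaling, and the within-library ratios above do not.

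The relations rested in part on 2 libraries. LFD 1 and HFD 2 lay farthest from the median of Col2a1, and without them r was 0.93 for Col9a1, 0.87 for Col9a2, 0.83 for Col9a3, 0.68 for Col27a1, 0.57 for Col11a1 and 0.55 for Col11a2, with no adjusted p under 0.05 by exact permutation of 5 libraries. Without LFD 1 alone r was 0.92 for Col9a1, 0.76 for Col9a2, 0.88 for Col9a3, 0.79 for Col11a1, 0.65 for Col11a2 and 0.78 for Col27a1, also with no adjusted p under 0.05, and r of Col10a1 was 0.68. Taken as deviations from the diet means, r was 0.88 to 0.97 for the 6 genes (exact permutation within the diets, p from 0.00694 to 0.0278, the first being the smallest possible) and -0.54 for Col10a1. Among all 21 pairs of members other than Col10a1, r ranged from 0.84 to 0.99, and among the 7 pairs with Col10a1 from -0.31 to 0.05. Without LFD 1 the pairs with Col10a1 ranged from 0.63 (Col9a2) to 0.95 (Col11a2), and the other pairs from 0.64 to 0.98. The low values with Col10a1 thus rested on LFD 1. These ranges are given as a description of the libraries.

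**Figure D4:**
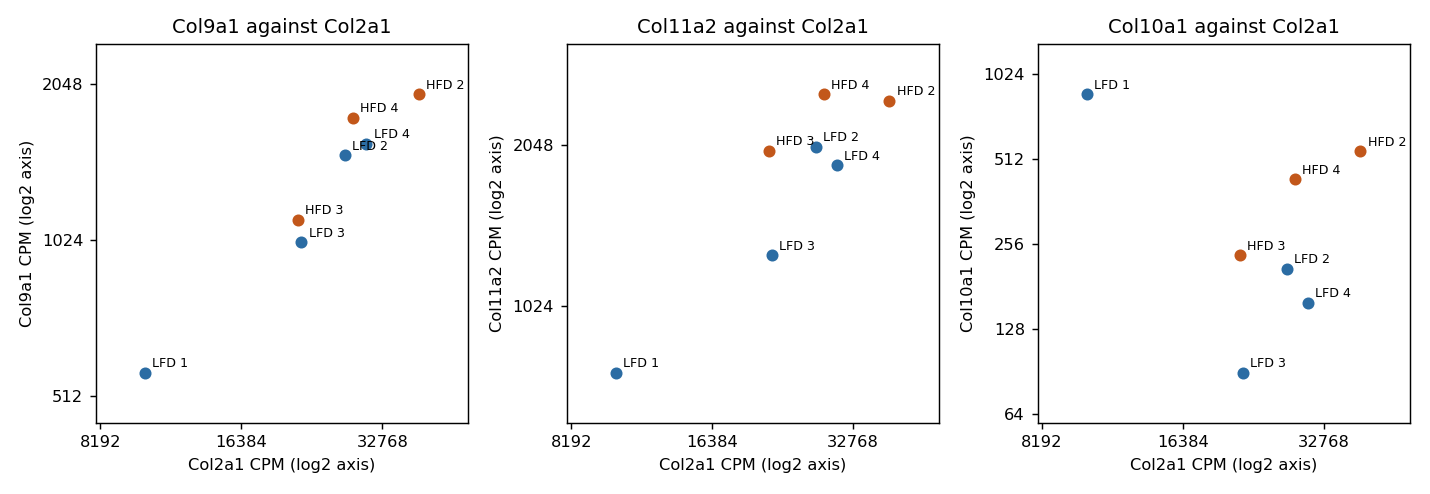
CPM of Col9a1, Col11a2 and Col10a1 (y axes, log2) against Col2a1 (x axes, log2) in the 3 HFD libraries (orange) and 4 LFD libraries (blue). Col9a1 lies along a rising line from LFD 1 to HFD 2. Col11a2 is lowest in LFD 1 and scatters more among the other libraries, where HFD 4 is highest. LFD 1 holds the lowest Col2a1 and the highest Col10a1.

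Ranked by r with Col2a1 among 8990 other genes with a mean of at least 8 CPM, Col9a1 was first, Col9a3 4th, Col9a2 16th, Col11a2 31st, Col11a1 44th, Col27a1 45th and Col10a1 6783rd. The 5 most similar genes outside the members were the fatty acid desaturase gene Fads2 (r = 0.97), Srpx (0.97), the fructose transporter gene Slc2a5 (0.95), the fibril-associated collagen gene Col12a1 (0.95) and Car8 (0.95), over 7 libraries. The 5 genes most similar to Col10a1 were Tnfrsf12a, a receptor of the TNF family (r = 0.98), Aprt, a purine salvage enzyme gene (0.96), Nsun2, an RNA methyltransferase gene (0.96), Nt5c3b (0.96) and Ybx1 (0.96). These are descriptions of 7 libraries.

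LFD 1 was set against LFD 2, 3 and 4 gene by gene. It was below the 3 other LFD libraries for 7 of the 8 members and above them for Col10a1, where 27.5% of all tested genes had LFD 1 lowest and 33.0% had it highest. Of 16 other cartilage matrix genes 1, the matrilin gene Matn3, had LFD 1 lowest (482 CPM, against 686 to 1229 CPM in the other LFD libraries) and 5 had it highest. Prg4, the lubricin gene of the joint surface, named after its values were seen, measured 12960 CPM in LFD 1 against 3169 to 6967 CPM in LFD 2, 3 and 4, and Cilp, a gene of articular cartilage and other joint tissue, 15941 against 4983 to 10646 CPM. Acan measured 929 CPM in LFD 1 and 698 to 1293 CPM in the other LFD libraries. Of 14 growth plate genes, 6 had LFD 1 highest of the LFD libraries and 3 had it lowest. Pth1r (474 CPM in LFD 1 against 574 to 797 CPM) and Panx3 (153 against 203 to 340 CPM) had it lowest. So did Alpl (823 against 847 to 909 CPM), and these 3 were named after their values were seen. Ihh, the hedgehog ligand of prehypertrophic cells, measured 39.3 CPM in LFD 1 against 19.2 to 30.8 CPM. Mmp13, the collagenase of late hypertrophic cells, is in the list of degradation genes and measured 257 against 560.2 to 998 CPM. Spp1 measured 3657 CPM in LFD 1 against 2220.5 to 3572 CPM, and Vegfa and Ibsp, named after their values were seen, 84.4 against 28.9 to 45.2 CPM and 3313 against 2328 to 2805 CPM. Of 11 transcription factor genes 4 had LFD 1 highest and 4 lowest. Sox9 measured 673 CPM in LFD 1 against 331 to 555 CPM, and Sox5 49.7 against 30.1 to 42.1 CPM, both highest in LFD 1. Sox6 was lowest there, at 87.2 against 139 to 210 CPM. Runx2 measured 14.2 CPM in LFD 1 against 22.6 to 32.6 CPM, and Mef2c 57.2 against 65.2 to 100.05 CPM. The erythroid markers summed to 93482 CPM in LFD 1 and 115047 to 162101 CPM in LFD 2, 3 and 4, and the granulocyte markers to 957 and 1787 to 5403 CPM. The osteoblast markers summed to 8823 and 11944 to 26104 CPM, and Col1a1, 1 of them, measured 4130 and 8123 to 22028 CPM. Of the 9 osteoblast markers 5 had LFD 1 lowest of the LFD libraries and 2 had it highest. The muscle markers summed to 472 CPM in LFD 1 and 243 to 314 CPM in LFD 2, 3 and 4. The reticular stroma sum was 468 and 212 to 464 CPM, so LFD 1 was barely the highest. Of these 8 markers 4 had LFD 1 highest and 2 had it lowest. Among them Cxcl14 measured 208 CPM in LFD 1 and 29.8 to 54.0 CPM in the others, and Cxcl12 8.51 and 39.8 to 207 CPM. Their part in the difference was not tested.

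**Figure D5:**
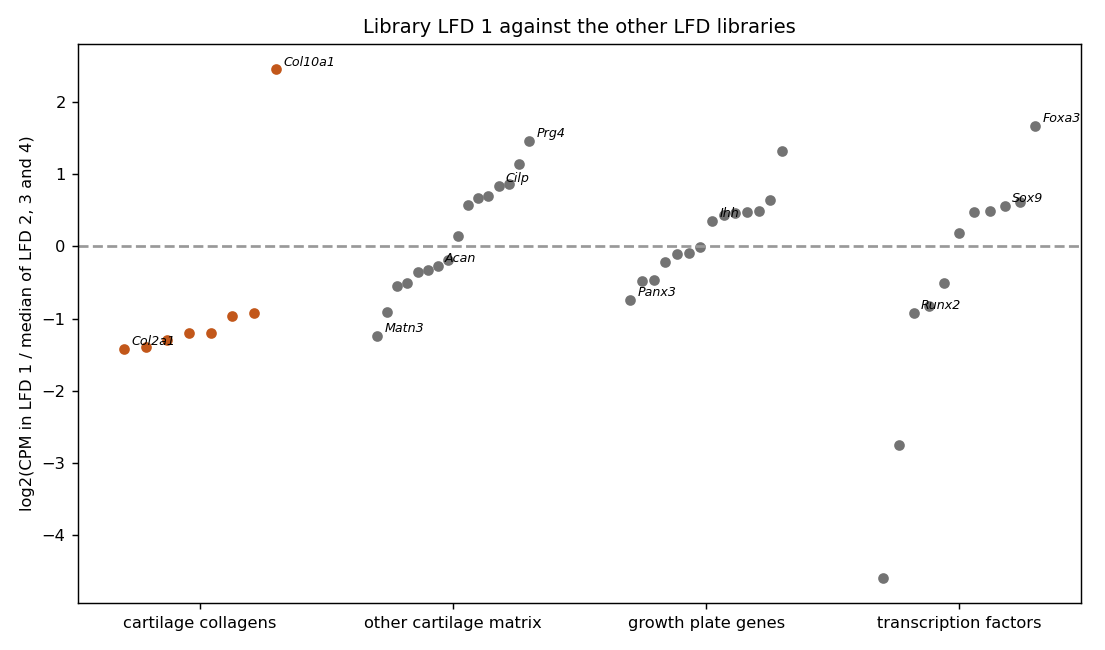
Log2 ratio of CPM in LFD 1 to the median of LFD 2, 3 and 4 (y axis) for each tested gene with a value above 0 in 4 lists (x axis), cartilage collagens in orange and other cartilage matrix, growth plate genes and cartilage transcription factors in grey. Col10a1 is the highest gene of these 4 lists, and the other 7 collagens lie below 0.

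Among HFD libraries, HFD 3 was lowest for 8 of the 8 members and HFD 2 highest for 6. HFD 3 had the highest Col1a1 of all libraries (27692 CPM, against 16860 and 17822 CPM in HFD 2 and 4), and HFD 2 the lowest erythroid sum (22658 CPM, against 75533 and 109618 CPM in HFD 3 and 4). The part of these in the order of the libraries was not tested.

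Genes that regulate or accompany the cartilage collagens were compared in the same fit, and none passed an adjusted p of 0.05 by edgeR. Of 11 tested transcription factor genes of cartilage 9 had higher values in HFD (median log2 fold change 0.37). Sox9 measured 672 ± 44.7 CPM in HFD and 504 ± 145 CPM in LFD (0.41 ± 0.28), Sox5 had 0.48 ± 0.24, Runx2 0.37 ± 0.32 and Mef2c 0.37 ± 0.23. Sox6 had the opposite sign, with 42.0, 76.2 and 106 CPM in HFD 2, 3 and 4 against 87.2, 155, 209.9 and 139 CPM in LFD 1, 2, 3 and 4 (-0.98 ± 0.39, edgeR, unadjusted p = 0.0359, adjusted p = 0.617). It was lowest in HFD 2, where Col2a1 was highest, and HFD 4 lay within the LFD range. Over the 7 libraries Sox6 had the same order as the erythroid sum, whose part in its values was not tested.

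Of 16 other cartilage matrix genes 13 had higher values in HFD by edgeR (median 0.35), but 8 did by limma-voom (median -0.01). Acan measured 1773, 1423 and 1721 CPM in HFD 2, 3 and 4, against 929, 1119.9, 698 and 1293 CPM in LFD 1, 2, 3 and 4, a log2 fold change of 0.70 ± 0.29 (edgeR, unadjusted p = 0.0412, adjusted p = 0.643). Hapln1, which links aggrecan to hyaluronan, measured 1910.5, 1202 and 1244 CPM in HFD 2, 3 and 4, against 791, 902, 604 and 984 CPM in LFD 1, 2, 3 and 4 (0.82 ± 0.29, edgeR, unadjusted p = 0.0226, adjusted p = 0.556). For Acan and Hapln1 every HFD library lay above every LFD library, which 8.4% of all tested genes showed in this direction. Cilp, the most abundant of the list, had 0.24 ± 0.43.

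Of 21 genes that modify, fold or cleave procollagen 18 had higher values in HFD (median 0.53), with 5 at an unadjusted p under 0.05, where 7.53% of all tested genes were. Adamts2, which removes the amino-terminal propeptide of fibrillar procollagens, measured 223, 252 and 127 CPM in HFD 2, 3 and 4, against 80.5, 93.0, 115 and 73.0 CPM in LFD 1, 2, 3 and 4 (log2 fold change 1.15 ± 0.28, edgeR, unadjusted p = 0.00341, adjusted p = 0.290). Serpinh1, the collagen chaperone HSP47, had 0.65 ± 0.28 (edgeR, adjusted p = 0.658). Of 12 genes of collagen degradation and its inhibitors 11 had higher values (median 0.66), with Mmp13 at 0.71 ± 0.49 and the X-linked inhibitor gene Timp1 at 1.01 ± 0.21 (edgeR, adjusted p = 0.236), and Mmp8 also counts among the granulocyte markers given above. DESeq2 called 1 gene of the procollagen list and 3 of the degradation list, and 2.25% of all genes it tested.

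Of 7 collagen receptor genes 5 had higher values in HFD (median 0.34), with Itgb1 at 0.07 ± 0.22 and the receptor kinase gene Ddr1 at -0.70 ± 0.24 (edgeR, adjusted p = 0.524). Of 14 growth plate genes 11 had higher values (median 0.44), with Spp1 (osteopontin) at 0.91 ± 0.36 (edgeR, adjusted p = 0.613) and Ihh at -0.40 ± 0.30. Of 21 collagen genes of other tissues 17 had higher values (median 0.35). Col1a1 had 0.65 ± 0.59 and Col5a2, a chain of type V collagen of bone and fibrous tissue, 0.71 ± 0.27 (edgeR, unadjusted p = 0.0308, adjusted p = 0.611). By edgeR the cartilage collagens, with 8 of 8 above 0, had a larger share of higher values than any of these lists. Their median of 0.51 lay within the range of the lists' medians, from 0.34 to 0.66. By limma-voom 5 of the 8 were above 0, so that ranking did not hold. There 19 of 21 procollagen genes, 11 of 12 degradation genes and 8 of 16 other cartilage matrix genes were above 0. Members other than Col10a1 varied together, so their signs are not independent results.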

How the data were processed

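RNA from the sorted cells was copied with the SMART-Seq v4 low-input kit, made into Nextera XT libraries and sequenced in pairs, per the labels' protocols. The authors deposited raw counts per Ensembl gene, not normalized, with a column for each library. Build mm10, STAR 2.5.2b, HTSeq 0.11.2, bcl2fastq 2.20, DESeq2 1.26.0 and cutadapt are listed in the submitters' processing notes. Annotation release, strand setting and handling of multiply mapped reads are not stated there. Exons of Col9a3 share 234 bases with Tcfl5 (0 to 59 counts) and those of Col10a1 share 18 with Nt5dc1 (241 to 663 counts), both on the opposite strand, so a few reads may be misassigned. Of 42687 identifiers 42250 had a symbol. Every pair of libraries differed by more than sampling noise (chi-square over its degrees of freedom was 53.8 or more).

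HFD was compared with LFD by edgeR 4.0.16 in R 4.3.3 (quasi-likelihood test, TMM, filterByExpr, robust fit, diet as sole term, Benjamini-Hochberg over all genes at 0.05), a procedure tested on simulated data. SE is the fold change divided by the square root of F. Ratios used a pseudocount of 0.5. Correlations used log2 CPM with a prior count of 2. The smallest count of a member was 1196, so counting error is small, and PCR duplicates without molecular identifiers are not independent. Members, lists and tests were chosen with earlier results of these data known. Besides the members, the text names from each list the gene with the highest CPM and the smallest p, a few fixed regulators and partners, and the 5 genes most like Col2a1 and Col10a1. Matn3, Prg4, Vegfa, Ibsp, Pth1r, Panx3, Alpl, Cxcl12 and Cxcl14 were named after their values were seen. Alternatives were other normalizations, filters and thresholds, DESeq2 1.42.0, limma 3.58.1 voom, sva 3.50.0, a replicate block and leaving out each library.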

Additional observations from a re-analysis of the deposited data

Results flagged for a closer look

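Col10a1 in LFD 1 was far from the other LFD libraries, at 872 CPM where LFD 2, 3 and 4 had 209.7, 90.0 and 159 CPM. Relative to Col2a1 the same library was also far apart, at 8.54 Col10a1 counts per 100 Col2a1 counts against 0.768, 0.409 and 0.525. On the log2 scale on which the ratios were tested, the gap of LFD 1 was 0.793 of the range of the LFD libraries, below the critical value used. Col9a2 in LFD 1 stood apart by a smaller distance, at 5.84 counts per 100 Col2a1 counts where the other LFD libraries had 5.03, 5.08 and 5.17, which rests on how close those 3 values were, and HFD 4 was higher (6.97). It passed narrowly, with a gap of 0.8304 of the range, and on the log2 scale (0.8196) it did not pass. These are 3 of 27 measures screened. The gap of 1 sample of 4 to its neighbour was set against the range of the group with Dixon's critical value, which chance passes in about 1 of 20 groups, and 8.03% of all tested genes passed it in the LFD group. LFD 1 was the high library for 310 of those 1148 genes.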

How the results depend on the processing

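The count of 0 members called held under all 16 alternatives of the diet comparison, with adjusted p of single members no lower than 0.281. Of 128 member fold changes under them, 122 stayed above 0 and 6 turned. With limma-voom, which gave HFD 3 (3.96) and LFD 4 (2.22) the highest sample weights, Col2a1 was -0.068, Col9a1 -0.029 and Col9a2 -0.15. Col10a1 was -0.38 with 1 surrogate variable and ranged from -0.0019 without HFD 2, through -0.024 without LFD 3, to 1.42 without LFD 1. The number of all genes called was 5 in the main test, 10 at an adjusted p under 0.1, 8 with no filter, 0 with 10 counts in 4 libraries, 361 by DESeq2, 28 by limma-voom, 2 with 1 surrogate variable and 1 to 6 with a library left out. Same-numbered libraries did not deviate together (r = -0.0950, 0.0263 and -0.0620 for numbers 2, 3 and 4), and not every library correlated best with its own number. With the replicate block 0 genes were called, 0 of them members, and Col10a1 had 1.41 (edgeR, adjusted p = 0.480). The cause of these shifts was not tested.

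No ratio passed under any alternative, though 2 against 4 libraries cannot go below p = 0.0667, nor 3 against 3 below 0.1, by exact permutation. With a library left out, the difference (HFD minus LFD, log2) ran from -0.19 to 1.27 for Col10a1 over Col2a1, from -0.15 to 0.045 for Col11a2 over Col11a1, from -0.25 to 0.10 for Col9a2 over Col2a1 and from -0.78 to 0.0037 for Col2a1 over Col1a1. With medians Col11a2 over Col11a1 was 0.0063, Col10a1 over Col2a1 was 1.13 where means gave 0.28, and Col2a1 over Acan was -0.54 where means gave -0.25. Relations with Col2a1 passed with RLE scaling and within the diets, and lost their adjusted call without LFD 1 and HFD 2 (r = 0.93 for Col9a1, 0.87 for Col9a2, 0.83 for Col9a3, 0.57 for Col11a1, 0.55 for Col11a2, 0.68 for Col27a1) and, in an alternative chosen after seeing the data, without LFD 1 (0.92, 0.76, 0.88, 0.79, 0.65 and 0.78 in that order). Fewer libraries alone raise the smallest possible p. For Col10a1 r turned to 0.39 and 0.68.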
